A study of Mus musculus with 12 samples.

Results

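The microRNAs miR-221 and miR-222 were measured in mouse embryonic fibroblasts with and without XBP1, before and after tunicamycin. They were taken by name, as mmu-miR-221 and mmu-miR-222, and are 2 of the 611 mouse miRNAs on the array (650 with viral ones) and 2 of the 256 that could be tested. There were 12 arrays, 2 for each of 6 groups, and per the labels the 2 came from independent experiments. The cells had a C57BL/6 background and were wild type for XBP1 or deficient in it (knockout below). They were left untreated or were given 2 ug/mL tunicamycin for 12 h or 24 h. All groups were grown in the same medium, and how the XBP1 gene was inactivated and from how many embryos the cells came are not given in the sources used here. The array holds no probe for the Xbp1 transcript, so the genotype labels were not checked.

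A miRNA is a short RNA that guides the silencing complex to messenger RNAs, mainly by pairing of its seed, the bases near its 5′ end, with sites in the target. miR-221 and miR-222 are cut from neighbouring hairpins and are widely studied for repressing the cell cycle inhibitor p27 (Cdkn1b) and the receptor KIT. XBP1 switches on genes of the response to unfolded proteins once the stress sensor IRE1 has spliced its messenger RNA. Tunicamycin is an inhibitor of N-glycosylation, and the misfolded glycoproteins it leaves behind stress the endoplasmic reticulum.

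The mature sequences are shown because the pair shares the bases that select targets, while the array reads each miRNA with probes of its own. Both members matched RefSeq entries (build GRCm38.p6), by name to the 3p arm, since the array carries the older names without an arm and the probe sequences were not used here. Capitals mark the seed, bases 2 to 8 from the 5′ end.
miR-221-3p: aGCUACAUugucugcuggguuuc
miR-222-3p: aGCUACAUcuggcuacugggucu
miR-1928: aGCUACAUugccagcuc
The first 8 bases of miR-221-3p and miR-222-3p are the same, and 11 of their 23 positions are identical when aligned without gaps. Of 1738 mature mouse miRNAs in the RefSeq table, 3 have this seed. The third is miR-1928, which comes from chromosome 1 (chr1:74206562-74206578, minus strand). By name, the mouse miRNAs on the array included no miR-1928 and no other product of the hairpins of miR-221 and miR-222. Viral miRNAs on the array, and any mouse miRNA missing from the RefSeq table, were not checked for the seed.

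Both hairpins lie on the minus strand of the X chromosome, Mir222 at chrX:19146893-19146971 and Mir221 at chrX:19146294-19146388. They are separated by 504 bases, over which the RefSeq table lists no other gene. The hairpins are shown with the measured arm in capitals.
Mir221: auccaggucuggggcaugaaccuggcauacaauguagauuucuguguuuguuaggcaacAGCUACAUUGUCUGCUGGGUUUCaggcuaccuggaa
Mir222: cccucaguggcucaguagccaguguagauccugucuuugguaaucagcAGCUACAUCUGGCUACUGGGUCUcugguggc

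The summed mouse miRNA signal was 95743 to 187401 on the 4 untreated arrays and 15850 to 80997 on the 8 tunicamycin arrays, and 193 to 222 and 120 to 200 mouse miRNAs were called detected. All untreated arrays were on 1 slide and all tunicamycin arrays on the other, so treatment and slide cannot be told apart. Knockout and wild type, and 12 h and 24 h, were compared within a slide and within a scan. Of 9 fibroblast markers on the array, 6 were detected on all 12 arrays, and their list made up 16.2% to 45.1% of the signal. Of markers of other cells, none of 6 epithelial and none of 5 blood markers was detected on any array, nor were 1 of 2 endothelial, 3 of 4 muscle, 1 of 3 neural and 6 of 7 pluripotent markers. These lists reached at most 0.0137% (epithelial), 0.0184% (blood), 0.0439% (endothelial), 0.129% (muscle), 0.0559% (neural) and 0.338% (pluripotent) of the signal on any array.

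On every array miR-221 was brighter in knockout than in wild type cells of the same condition, and the difference passed the test in untreated cells, at 24 h and averaged over conditions, but not at 12 h. It was called detected on all 12 arrays. Its unscaled signal, the spot intensity summed over its 2 probes, was 154 and 179 in untreated wild type cells and 682 and 707 in untreated knockout cells. After 12 h of tunicamycin the wild type arrays gave 32.7 and 50.8 and the knockout arrays 93.3 and 163. After 24 h the wild type arrays gave 29.1 and 46.8 and the knockout arrays 151 and 125. Within each condition both knockout arrays were above both wild type arrays, and within each genotype both untreated arrays were above all 4 treated ones.

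Because treated arrays were dimmer as a whole, each array was scaled to the 75th percentile of the miRNAs detected on all arrays, and levels are given as log2 of the scaled signal. On this scale miR-221 was 6.49 and 6.47 in untreated wild type cells, 6.13 and 5.87 at 12 h, and 6.78 and 6.13 at 24 h. In knockout cells it was 7.78 and 7.81 untreated, 7.34 and 6.86 at 12 h, and 7.76 and 7.39 at 24 h. The lowest knockout array, at 6.86, was above the highest wild type array, at 6.78. The knockout was higher on all 6 arrays than the wild type on any of its 6 for 1 of the 2 members, miR-221, and for 3 of the 256 tested miRNAs (1.17%).

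**Figure D1:**
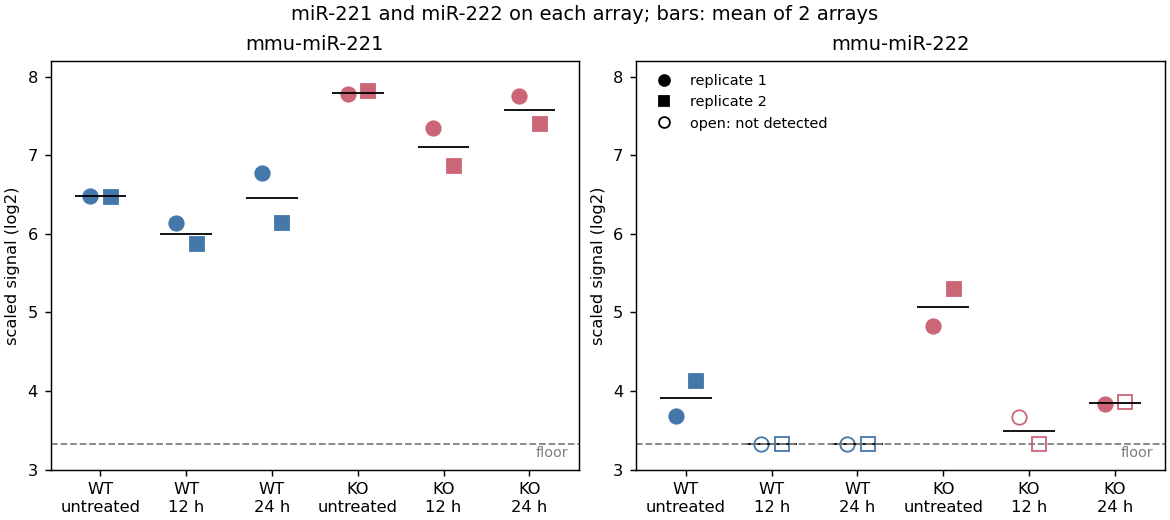
The vertical axis is the scaled signal (log2) of miR-221 (left) and miR-222 (right) in wild type (WT) and knockout (KO) cells, with 1 point per array, bars at the mean of 2 arrays, open points where the miRNA was not called detected, and a dashed line at the floor of 3.33. All knockout points of miR-221 lie above all its wild type points, while 5 points of miR-222 lie on the floor.

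The group means of miR-221, from highest to lowest, were 7.80 ± 0.023 (SD, n = 2) in untreated knockout cells, 7.58 ± 0.26 in knockout cells at 24 h and 7.10 ± 0.34 at 12 h. Then came untreated wild type cells at 6.48 ± 0.0090, wild type cells at 24 h at 6.46 ± 0.46 and at 12 h at 6.00 ± 0.19. The gap of 0.62 between knockout at 12 h and untreated wild type was the widest between neighbours in this order, against a standard error of 0.26 for any such difference. The next gaps were 0.47 and 0.45, between 24 h and 12 h in each genotype, and the remaining 2 gaps, 0.22 and 0.02, were smaller than the standard error. Arrays of neighbouring groups overlapped only among the wild type groups.

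The difference between genotypes was tested with limma, with p-values adjusted by the Benjamini-Hochberg method over the 256 tested miRNAs. In untreated cells miR-221 was 1.32 higher in the knockout on the log2 scale (SE 0.26, 2.49-fold, limma adjusted p = 0.0150). miR-222 was called detected on all 4 untreated arrays, with a log2 scaled signal of 3.68 and 4.13 on the wild type and 4.83 and 5.30 on the knockout arrays, without overlap. It was 1.16 higher in the knockout (SE 0.20, 2.24-fold, limma adjusted p = 0.00936). So 2 of 2 members were called higher in untreated knockout cells, where 5.08% of all tested miRNAs were called higher and 12.5% in either direction. The untreated call of miR-221 was lost without any 1 of the 4 untreated arrays, with differences of 1.30 to 1.33 and adjusted p-values up to 0.0975, and that of miR-222 was lost without the first wild type replicate (0.94, limma adjusted p = 0.0512). The call of miR-221 was also lost with normexp background correction (0.81, limma adjusted p = 0.0924), quantile normalization (1.55, limma adjusted p = 0.165) and the 75th percentile over all mouse miRNAs (1.71, limma adjusted p = 0.0685). For miR-222 the sign turned with normexp (-0.11) and with the software totals (-0.43). Under normexp the median over all tested miRNAs in this comparison was -0.34.

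At 12 h of tunicamycin miR-221 was 1.10 higher in the knockout, with a 95% interval of 0.48 to 1.71, and did not pass the threshold (limma adjusted p = 0.0623). The difference passed when a block for replicate or for scan was added. With normexp this difference was 0.0073 (limma adjusted p = 0.981), against a median of -0.56 over all tested miRNAs. Neither member was called at 12 h, where 5.08% of tested miRNAs were called. At 24 h miR-221 was 1.12 higher in the knockout (SE 0.26, limma adjusted p = 0.0455). With normexp, under which the median over all tested miRNAs was -0.48, it was 0.23 higher (limma adjusted p = 0.504). It was the 1 of 2 members called at 24 h, where 4.69% of tested miRNAs were called higher and 7.81% in either direction. When only the 95 miRNAs detected on all arrays were tested, 15 were called at 24 h, 10 of them higher. The 24 h call was lost without any 1 of 10 arrays, with adjusted p-values up to 0.162, and held without the first wild type or the second knockout replicate at 24 h. The 12 h difference passed without any 1 of the 4 arrays at 24 h, with an adjusted p of 0.0256 at the lowest.

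Averaged over the 3 conditions, miR-221 was 1.18 higher in the knockout (SE 0.15, 2.26-fold, limma adjusted p = 0.00185). miR-222 was 0.62 higher (SE 0.11, limma adjusted p = 0.00994), a value held down by the floor described below. Both members were called in this average, where 10.2% of tested miRNAs were called higher and 23.0% in either direction. When only the 95 miRNAs detected on all arrays were tested, miR-221 among them, 36 were called, 15 of them higher. Within the separate scans, the genotype difference of miR-221 was 1.30 and 1.34 in untreated cells, 1.21 and 0.99 at 12 h, and 0.98 and 1.26 at 24 h, and so had the same sign in all 6 within-scan pairs. With scan as a fixed block the 12 h difference of miR-221 passed the threshold (limma adjusted p = 0.0229). With normexp background correction the average over conditions fell to 0.35 for miR-221 (limma adjusted p = 0.0621) and turned to -0.40 for miR-222. The median of this average over all tested miRNAs was -0.46 under normexp, with 156 of 256 called lower.

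**Figure D2:**
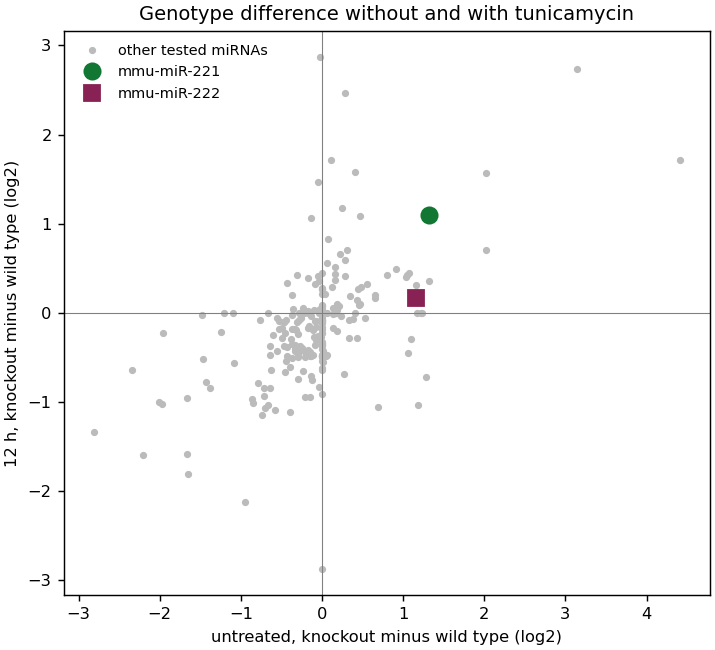
Each point is 1 of the 256 tested miRNAs, with the knockout minus wild type difference (log2 scaled signal) in untreated cells on the horizontal axis and at 12 h of tunicamycin on the vertical axis. miR-221 lies at 1.32 and 1.10, and miR-222 at 1.16 and 0.17.

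The tunicamycin response of miR-221 did not pass the threshold in either genotype. The series' design text states that it sought miRNAs whose response at 12 h depends on XBP1. At 12 h miR-221 was 0.48 lower than untreated in wild type cells, with a 95% interval of -1.09 to 0.14 (limma adjusted p = 0.178). In knockout cells it was 0.70 lower, with an interval of -1.31 to -0.08 (limma adjusted p = 0.0606), and this passed without either wild type replicate at 24 h (limma adjusted p = 0.0359 and 0.0345). The 2 responses differed by -0.22, knockout minus wild type, with an interval of -1.09 to 0.65 (limma adjusted p = 1), and by 0.023 without the second knockout replicate at 12 h. At 24 h miR-221 stood 0.02 below untreated in wild type cells (limma adjusted p = 1) and 0.22 below in knockout cells (limma adjusted p = 0.771), and the responses differed by -0.20, with an interval of -1.07 to 0.67. Without 1 wild type replicate at 24 h, the wild type change was 0.30 (without the second) and the difference in response 0.12 (without the first).

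Between 12 h and 24 h miR-221 was 0.45 higher at the later time in wild type cells (limma adjusted p = 0.264) and 0.47 higher in knockout cells (limma adjusted p = 0.195). Scan by scan, wild type cells gave 0.65 and 0.26, and knockout cells gave 0.41 and 0.53. Over the 95 miRNAs detected on all arrays, miR-221 among them, the median differences were 0.36 in wild type and 0.50 in knockout cells. When only these 95 were tested, 4 were called higher and 8 lower in wild type cells, and 47 higher and 10 lower in knockout cells. Neither member was called between the times in either genotype, where 21.9% of tested miRNAs were called in wild type and 39.5% in knockout cells. miR-222 was at the floor at both times in wild type cells and 0.35 higher at 24 h in knockout cells (limma adjusted p = 0.197). With scan as a fixed block, the knockout difference passed for miR-221 (limma adjusted p = 0.0456) and for miR-222 (limma adjusted p = 0.0458).

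The size of the tunicamycin response rested on the scaling. Unscaled, the mean signal of miR-221 was 3.98-fold lower at 12 h and 4.38-fold lower at 24 h in wild type cells, and 5.42-fold and 5.04-fold lower in knockout cells. Without scaling, the median over all tested miRNAs at 12 h moved from -0.09 to -1.36 in wild type and from 0 to -1.53 in knockout cells. Against those medians, miR-221 without scaling was -2.02 in wild type (limma adjusted p = 0.00605) and -2.49 in knockout cells (limma adjusted p = 0.00160). With normexp background correction, under which the median of all tested miRNAs was 1.23 in wild type cells at 12 h, miR-221 was 0.62 higher at 12 h in them. On arrays of bulk RNA, less miRNA per cell and fewer cells that hold it cannot be told apart.

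miR-222 was much dimmer than miR-221 and was not called detected on 7 of the 8 treated arrays. Its unscaled signal was 22.0 and 35.3 in untreated wild type cells and 88.3 and 124 in untreated knockout cells. After 12 h the wild type arrays gave 3.58 and 4.66 and the knockout arrays 7.27 and 12.0. After 24 h the wild type arrays gave 0.816 and -0.258, the latter sum negative after background subtraction, and the knockout arrays 9.96 and 10.8. It was called detected on the 4 untreated arrays and on the first knockout array at 24 h, so 5 arrays in all. Treated arrays of either genotype lay below the untreated arrays of that genotype without overlap.

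After scaling, signals below 10.0 (3.33 on the log2 scale, the 5th percentile of detected signals) were set to that floor. All 4 treated wild type arrays and the second knockout array at 12 h were on it. The first knockout array at 12 h was at 3.66, and the knockout arrays at 24 h were at 3.84 and 3.86. The 2 levels at 24 h in the knockout lay inside the range of untreated wild type cells. Groups on the floor have no spread of their own, so the standard errors of miR-222 are too small by an unknown amount. A miRNA was tested if it was called detected on both arrays of some group. miR-222 met this only in untreated wild type and untreated knockout cells, where it was brightest. Its adjusted p-values for a fall after treatment are therefore a description.

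In knockout cells miR-222 fell at 12 h by 1.57 on the log2 scale (SE 0.20, limma adjusted p = 0.000940). With the dim group set to the detection bound of its arrays, this was at least 2.89-fold lower. With normexp, under which the median of all tested miRNAs was 0.89, the sign turned (0.78). The call was lost with the deposited values (-2.03, limma adjusted p = 0.0962) and the software totals (-0.71, limma adjusted p = 0.651). In wild type cells it fell by 0.58 (SE 0.20, limma adjusted p = 0.0441), and the same bound gave at least 1.00-fold lower, so a fold could not be measured. With normexp the wild type sign turned (1.34, against a median of 1.23 over all tested miRNAs). The wild type call was lost without any 1 of 7 arrays, with adjusted p-values up to 0.247: the second untreated replicate, both at 12 h, both at 24 h and both knockout replicates at 24 h. At 12 h 1 of 2 members was called in each genotype, where 25.4% of all tested miRNAs were called lower in each. In either direction the share was 50.8% in wild type and 49.2% in knockout cells.

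At 24 h miR-222 fell in knockout cells by 1.22 (SE 0.20, limma adjusted p = 0.00742), with the sign turned under normexp (0.97) and the software totals (0.95). In wild type cells its difference was -0.58 (limma adjusted p = 0.102), or at least 1.12-fold lower with the bound. This difference equals that at 12 h, since both treated wild type groups were on the floor. The unadjusted limma p was 0.0219 at both times, and only the adjustment over all tested miRNAs set the 2 calls apart. So 1 of 2 members was called at 24 h in the knockout and none in wild type cells, where 14.1% and 17.6% of tested miRNAs were called. The shares called lower were 10.9% and 14.8%. The 12 h response of miR-222 differed between genotypes by -0.99, knockout minus wild type, with a 95% interval of -1.65 to -0.33, and did not pass after adjustment (limma adjusted p = 0.119), though it passed with scan as a fixed block (limma adjusted p = 0.0262). The 24 h response differed by -0.64 (limma adjusted p = 0.455). No member was called for a genotype difference in response, against 5.86% of tested miRNAs at 12 h and 4.69% at 24 h. Treated wild type cells were on the floor in both comparisons.

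**Figure D3:**
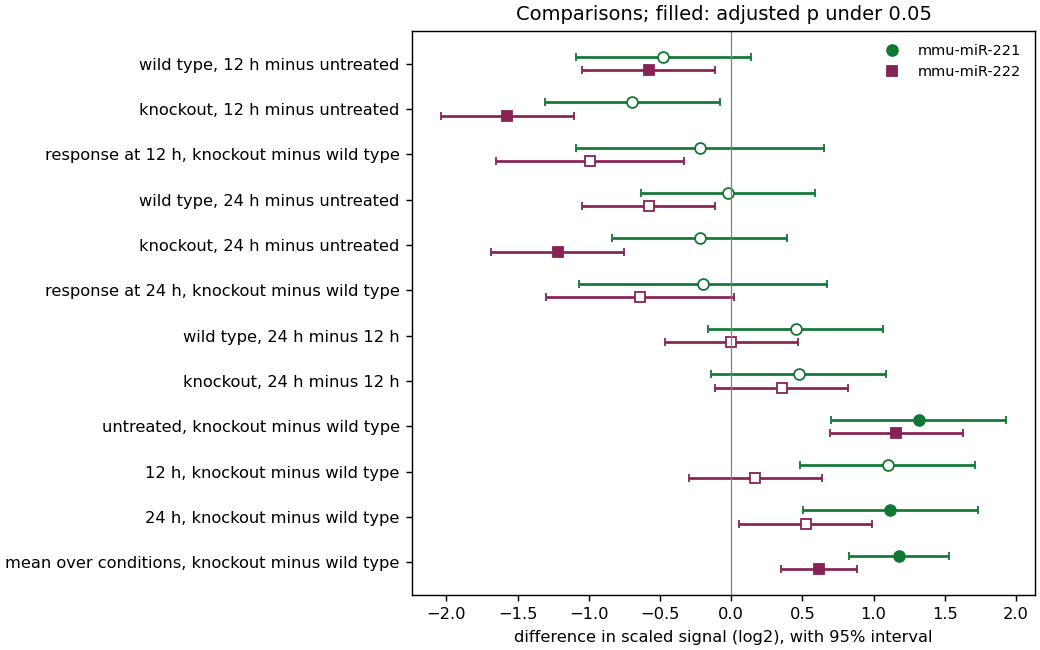
Differences in log2 scaled signal of miR-221 (circles) and miR-222 (squares) for the 12 comparisons, with 95% intervals from the limma fit and filled symbols where the adjusted p was under 0.05. The intervals of miR-221 lie above 0 in all 4 genotype comparisons and include 0 in the comparisons of response between genotypes.

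At 12 h and 24 h of treatment miR-222 was 0.17 (limma adjusted p = 0.943) and 0.52 higher (limma adjusted p = 0.195) in knockout than in wild type cells. Both wild type groups were on the floor, and at 12 h so was 1 knockout array, with miR-222 called detected on neither, so no fold between genotypes could be measured at 12 h. With scan as a fixed block the 24 h difference passed (limma adjusted p = 0.0384).

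Each member was read by 2 probes of 10 spots each, and no spot was saturated. The probes of miR-221, P2640 and P3830, kept a steady ratio, with P3830 between 1.72 and 1.97 times as bright on the 12 arrays (median 1.86). The coefficient of variation over the spots of a probe had a median of 8.25% for P2640 and 5.91% for P3830. For miR-222 the medians were 40.8% for P2643 and 33.8% for P2644, with mean signals per spot reaching down to -1.37 and 1.11. In untreated wild type cells 0 and 1 of the 10 spots of P2643 were well above background, so this probe leaves no room to measure a fall there. For miR-221, P2640 had 8 and 2 of 10 spots well above background in wild type cells at 12 h, and 6 and 10 at 24 h. P3830 had all 10 well above background on every array.

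**Figure D4:**
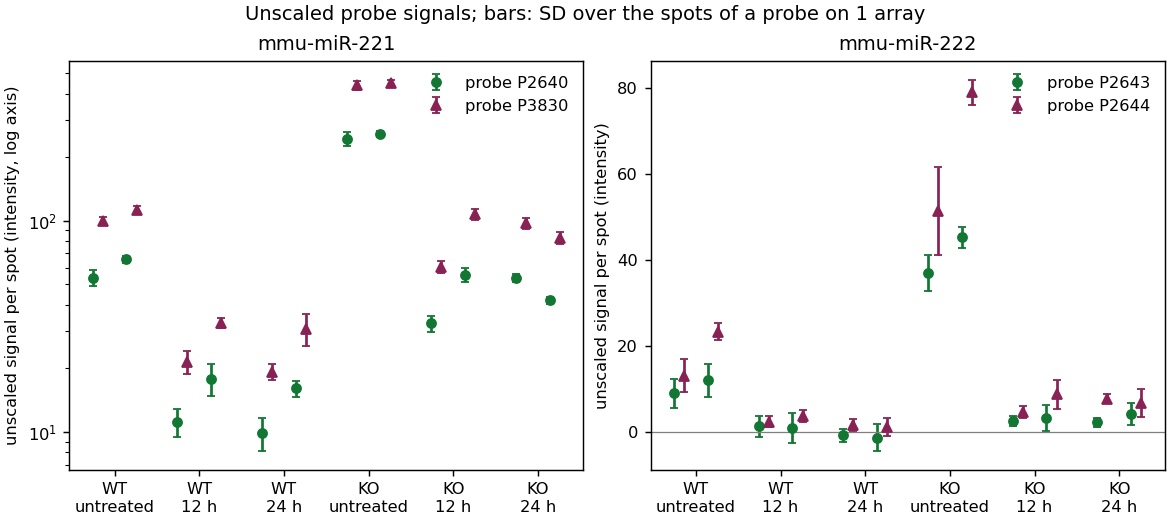
Unscaled mean signal per spot of each probe on each array, on a log axis for miR-221 (left) and a linear axis for miR-222 (right), with bars for the SD over the spots of a probe on 1 array. The probes of miR-221 move in parallel over all 12 arrays, and those of miR-222 lie close to 0 on the treated wild type arrays.

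The scanner software's own total for miR-222 did not always hold miR-222 alone. On 3 of the 5 arrays where it was detected, the total gene signal equalled the sum of its 2 probe totals, 23.7 in the second untreated wild type replicate and 55.4 and 81.9 in untreated knockout cells. On the first untreated wild type array the total was 107, while its own probes summed to 14.1 and the total of miR-221 was 98.6. On the first knockout array at 24 h the total was 105, with own probes at 6.61 and miR-221 at 100.1. In both cases the total equalled the total of miR-221 plus that of 1 of the 2 miR-222 probes, within 0.01%. The log2 values that the authors deposited equal the log2 of these totals. Those values are not scaled between arrays. With them the genotype difference of miR-222 in untreated cells was 0.42 (limma adjusted p = 0.938), against 1.91 for its probe signals without scaling. After scaling, the software totals gave -0.43 in place of 1.16. The total of miR-221 equalled the sum of its own probes on all 12 arrays.

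**Figure D5:**
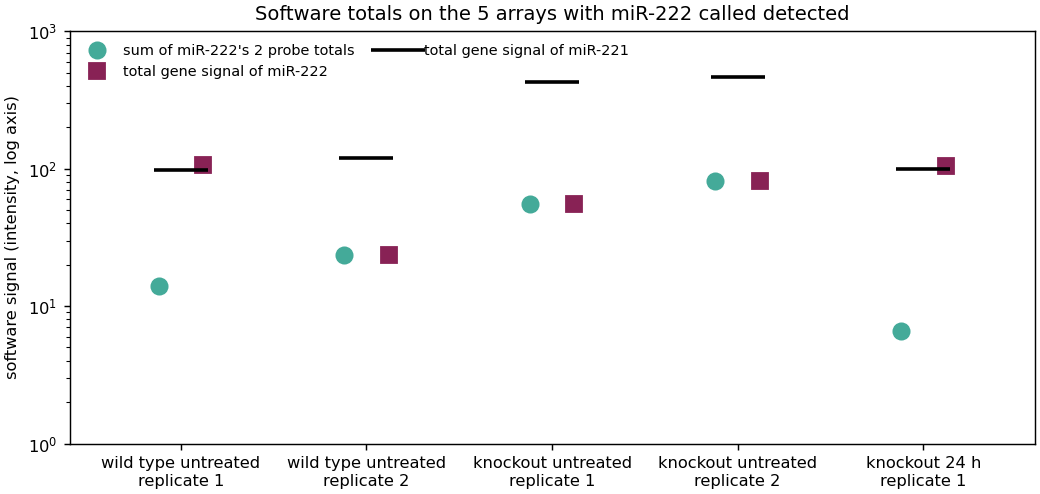
Total gene signal of miR-222 (squares), the sum of its 2 probe totals (circles) and the total gene signal of miR-221 (dashes) on a log axis, for the 5 arrays where miR-222 was called detected. On the first untreated wild type array and the first knockout array at 24 h the square lies just above the dash of miR-221 and far above the circle.

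The balance of the pair within an array was also compared. The log2 difference, miR-221 minus miR-222, was 2.80 and 2.34 in untreated wild type and 2.95 and 2.51 in untreated knockout cells. On the only treated array with miR-222 called detected, the first knockout replicate at 24 h, it was 3.92. On the other 7 treated arrays miR-222 was not called detected, and on 5 it was set to the floor, so the treated values below are not differences between measured levels. With them included, the mean was 2.65 ± 0.28 (SD, n = 4) untreated and 3.29 ± 0.50 (SD, n = 8) treated (two-sided exact permutation p = 0.0384, adjusted over 2 tests 0.0649). The knockout mean was 3.35 ± 0.52 and the wild type mean 2.79 ± 0.38 (n = 6 each, two-sided exact permutation p = 0.0649, adjusted 0.0649). Neither passed after adjustment, no change in the balance of the pair can be read from these means, and the treated minus untreated difference turned negative under 4 alternatives, with values of -0.77, -0.73, -0.10 and -0.02. The levels of the pair correlated at r = 0.70 over 12 arrays and 0.73 over 6 group means, which share arrays, scaling and the floor.

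Among 109 other mouse miRNAs above the floor on all 12 arrays, those most correlated with miR-221 were miR-199b* (r = 0.954), miR-30a (0.855), miR-183 (0.833), miR-30a* (0.818) and miR-365 (0.804). Over the 6 group means the order began with miR-199b* (0.990) and miR-30a (0.915), followed by miR-345-5p (0.872), miR-30a* and miR-29b (both 0.83). miR-199b* differed more between genotypes than miR-221, by 1.93 averaged over conditions (SE 0.12, limma adjusted p = 5.77e-05). miR-30a was 0.67 higher in the knockout (SE 0.058, limma adjusted p = 0.000237). The miRNAs most correlated with miR-222 were miR-143 (r = 0.958), miR-322 (0.915), miR-107 (0.889), miR-103 (0.872) and miR-130a (0.863). Over group means these were miR-143 (0.967), miR-322 (0.961), miR-107 and miR-21 (both 0.918) and miR-103 (0.909). At 12 h in the knockout, miR-143 fell by 1.99 (SE 0.28, limma adjusted p = 0.00152), and miR-322 fell by 2.88 (SE 0.32, limma adjusted p = 0.000580). All these levels share the arrays and their scaling, and the correlations are a description.

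Other miRNAs tied to cell proliferation or to the X chromosome were set beside the pair. Of 9 tested members of the miR-17 clusters, which promote proliferation, 3 fell and 0 rose at 12 h in wild type cells (median of all 9 -0.36, against -0.09 over all tested miRNAs), and 1 fell and 0 rose in the knockout (median -0.01, against 0). Over all tested miRNAs, 25.4% fell and 25.4% rose at 12 h in wild type cells, and 25.4% fell and 23.8% rose in knockout cells. Many of all tested miRNAs were on the floor, while these 9 were detected on all 12 arrays. Over the 95 miRNAs detected on all arrays, the medians at 12 h were -0.42 in wild type and -0.44 in knockout cells. Against those, the miR-17 list was not lower in either genotype. miR-93 fell in both, by 1.04 in wild type (SE 0.11, limma adjusted p = 0.000504) and 0.47 in knockout cells (SE 0.11, limma adjusted p = 0.0114). Of 11 miRNAs that restrain the cell cycle, the miR-15 and miR-34 families among them, 6 fell and 1 rose in each genotype (medians -0.70 and -0.74). Their riser was miR-34b-3p, on the floor on 8 arrays, and of the 6 fallers 3 were on the floor on some arrays, miR-503 on 8, miR-195 on 3 and miR-497 on 2. miR-322, above the floor on all 12 arrays, fell by 1.91 in wild type cells (limma adjusted p = 0.00276).

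Of 16 tested miRNAs from other X-linked clusters, 12 fell and 0 rose at 12 h in wild type cells (median -1.12) and 9 fell and 0 rose in knockout cells (median -0.51), against the same shares over all tested miRNAs. Of these fallers, 8 of 12 and 6 of 9 were on the floor on some arrays, and miR-322, miR-503 and miR-20b are counted in the lists above as well. miR-361 fell by 2.66 in wild type (SE 0.24, limma adjusted p = 0.000243) and 1.49 in knockout cells (SE 0.24, limma adjusted p = 0.00234). Between untreated genotypes, 2 of the 16 were higher and 7 lower in the knockout (median -0.23), against 5.08% higher and 7.42% lower over all tested miRNAs. Averaged over conditions, 4 of these 16 were higher and 6 lower (median -0.08), against 10.2% and 12.9%. Of 8 tested fibroblast markers, 4 fell at 12 h in wild type and 6 in knockout cells (medians -0.69 and -1.21) and none rose, against 25.4% of all tested miRNAs that fell in each genotype. Falls were more common among brighter miRNAs. When only the 95 miRNAs detected on all arrays were tested, 6 of these markers among them, 33 fell and 7 rose in wild type cells. In knockout cells 38 of the 95 fell and 10 rose. Among markers of other cells, the pluripotent miR-294 rose at 12 h by 3.95 in wild type and 3.60 in knockout cells (limma adjusted p = 0.000916 and 0.00133), and the muscle miR-206 by 2.54 and 2.75 (limma adjusted p = 0.00377 and 0.00265), with 5 and 8 arrays on the floor. The neural miR-9, on the floor on 10 arrays, was 1.17 higher in untreated knockout cells (limma adjusted p = 3.15e-05) and fell by 1.17 at 12 h in them (limma adjusted p = 1.05e-05), with wild type cells at the floor at both times. As for miR-222, groups on the floor have no spread of their own, and the filter could admit a miRNA through the group where it was high. The adjusted p-values of miR-294, miR-206 and miR-9 are therefore a description. The part of these markers in the results for miR-221 and miR-222 was not tested.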

How the data were processed

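The scanner files hold spot intensity values written by Agilent Feature Extraction 10.7.1.1, per the submitters' processing notes, with processed intensity that is background-subtracted and not normalized between arrays, per the file headers. The deposited series table holds log2 values that equal the log2 total gene signal of the scanner software to within 1.15e-06. Spots that were not controls or outliers were averaged per probe and summed per miRNA, scaled to the 75th percentile of the 95 mouse miRNAs detected on all arrays, floored at 10.0 and put on the log2 scale. limma 3.58.1 (R 4.3.3; lmFit, contrasts.fit and eBayes with trend) was fitted to all 12 arrays with 1 mean per group, 6 residual degrees of freedom, and Benjamini-Hochberg adjustment over 256 miRNAs at 0.05. The 256 were the mouse miRNAs called detected on both arrays of some group. The code was tested on simulated data. Normexp used the median spot and background signals, as the mean spot signal was not used here. It added an offset of 50 to each spot before scaling, while the mean processed signal per spot of miR-222 was at most 79.0 on any array. The probes of miR-221 also lay below 50 on the treated wild type arrays, at 9.86 to 33.0 per spot. With normexp, 181 of the 256 tested miRNAs were called higher and 11 lower at 12 h in wild type cells. How far the offset moved the values of the pair was not tested. Figures were drawn with matplotlib 3.10.9.

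The members and the lists were chosen with earlier results of these data known. Named miRNAs are the members, the 5 most correlated with each, and up to 3 per list past the threshold with the largest change at 12 h. Alternatives in scaling, background correction, probes, filters, blocks by replicate or scan, and leaving out each array were run, 2 of them, scaling to the total signal and unscaled within-array differences, chosen after seeing the data. Precision is limited by the number of arrays.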

Additional observations from a re-analysis of the deposited data

How the results depend on the processing

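Over 714 recomputed values, 579 kept their direction and their side of the 0.05 threshold, 53 no longer passed it, 52 newly passed it and 30 changed sign. The mean genotype difference of miR-221 passed under 28 of 29 alternatives. Log2 differences that changed are given in parentheses, and the cause was not tested where the setting itself does not show it.

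Normexp background correction added an offset of 50 to each spot before scaling. Under it the medians of the genotype differences over all tested miRNAs were -0.34 untreated, -0.56 at 12 h, -0.48 at 24 h and -0.46 averaged. With it, miR-221 no longer passed for the untreated genotype difference (0.81), the genotype difference at 24 h (0.23) and the mean genotype difference (0.35). It changed sign for the 12 h change in wild type (0.62), the 24 h change in wild type (0.71) and the 24 h change in knockout (0.14). miR-222 changed sign for the 12 h change in wild type (1.34), the 12 h change in knockout (0.78), the 24 h change in wild type (1.27), the 24 h change in knockout (0.97), the untreated genotype difference (-0.11), the genotype difference at 12 h (-0.67), the genotype difference at 24 h (-0.40) and the mean genotype difference (-0.40). The within-array difference of the pair newly passed for knockout minus wild type (0.75). Its sign changed for treated minus untreated (-0.77). With no scaling between arrays, miR-221 no longer passed for the genotype difference at 24 h (1.89). It newly passed for the 12 h change in wild type (-2.02), the 12 h change in knockout (-2.49), the 24 h change in wild type (-2.17) and the 24 h change in knockout (-2.34). The sign turned for 24 h against 12 h in wild type (-0.14). miR-222 newly passed for the genotype difference in the 12 h response (-1.91), the 24 h change in wild type (-1.20) and the genotype difference in the 24 h response (-1.91). Within an array, the difference of the pair newly passed for knockout minus wild type (1.22). It changed sign for treated minus untreated (-0.097). With scaling to the total mouse miRNA signal, miR-221 newly passed for the 12 h change in wild type (-0.95), the 12 h change in knockout (-0.81), 24 h against 12 h in wild type (0.90), 24 h against 12 h in knockout (0.68) and the genotype difference at 12 h (1.34). Its sign changed for the genotype difference in the 12 h response (0.14). miR-222 newly passed for the 24 h change in wild type (-0.65) and 24 h against 12 h in knockout (0.56). With the authors' deposited values, miR-221 no longer passed for the genotype difference at 24 h (1.92). It newly passed for the 12 h change in wild type (-2.00), the 12 h change in knockout (-2.44), the 24 h change in wild type (-2.15) and the 24 h change in knockout (-2.27). The sign turned for 24 h against 12 h in wild type (-0.15). miR-222 no longer passed for the 12 h change in wild type (-1.61), the 12 h change in knockout (-2.03), the 24 h change in knockout (-0.69), the untreated genotype difference (0.42) and the mean genotype difference (0.59). It changed sign for the genotype difference in the 24 h response (0.92). The within-array difference of the pair changed sign for treated minus untreated (-0.73).

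With quantile normalization, miR-221 no longer passed for the untreated genotype difference (1.55) and the genotype difference at 24 h (1.16). It newly passed for the 12 h change in knockout (-1.45). Its sign changed for the 24 h change in wild type (0.23). miR-222 newly passed for the genotype difference in the 12 h response (-1.39), 24 h against 12 h in knockout (1.05) and the genotype difference at 24 h (1.05). With the 75th percentile over all mouse miRNAs, miR-221 no longer passed for the untreated genotype difference (1.71) and the genotype difference at 24 h (1.59). It newly passed for the 12 h change in knockout (-1.53) and 24 h against 12 h in knockout (1.53). The sign turned for the 24 h change in wild type (0.12). miR-222 no longer passed for the 12 h change in wild type (-0.47) and the 24 h change in knockout (-0.997). It newly passed for 24 h against 12 h in knockout (1.02). With the software totals, miR-221 newly passed for the 12 h change in knockout (-0.88) and the genotype difference at 12 h (0.93). miR-222 no longer passed for the 12 h change in wild type (-1.14), the 12 h change in knockout (-0.71) and the mean genotype difference (0.41). It changed sign for the genotype difference in the 12 h response (0.43), the 24 h change in knockout (0.95), the genotype difference in the 24 h response (2.09) and the untreated genotype difference (-0.43). Within an array, the difference of the pair changed sign for treated minus untreated (-0.022).

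With a test of only the miRNAs detected on all arrays, miR-221 newly passed for the 12 h change in knockout (-0.70) and the genotype difference at 12 h (1.10). With the replicate block, miR-221 newly passed for the 12 h change in knockout (-0.70) and the genotype difference at 12 h (1.10). miR-222 no longer passed for the 12 h change in wild type (-0.58). With scan as a random block, miR-221 newly passed for the 12 h change in knockout (-0.70) and the genotype difference at 12 h (1.10). With the median as scaling point, miR-221 no longer passed for the genotype difference at 24 h (1.15). Its sign changed for the 24 h change in wild type (0.048). With only probe P3830 of miR-221 or P2644 of miR-222, miR-221 changed sign for the 24 h change in wild type (0.016). miR-222 no longer passed for the 24 h change in knockout (-1.02). The within-array difference of the pair newly passed for treated minus untreated (0.73). With scan as a fixed block, miR-221 newly passed for 24 h against 12 h in knockout (0.47) and the genotype difference at 12 h (1.10). miR-222 newly passed for the genotype difference in the 12 h response (-0.99), 24 h against 12 h in knockout (0.35) and the genotype difference at 24 h (0.52). With only probe P2640 of miR-221 or P2643 of miR-222, miR-221 no longer passed for the genotype difference at 24 h (1.14). miR-222 no longer passed for the 12 h change in wild type (-0.15). It newly passed for the genotype difference in the 12 h response (-1.23) and the genotype difference in the 24 h response (-1.17). Within an array, the difference of the pair newly passed for knockout minus wild type (0.76). With all mouse miRNAs tested, miR-221 no longer passed for the genotype difference at 24 h (1.12). miR-222 no longer passed for the 12 h change in wild type (-0.58), the 24 h change in knockout (-1.22), the untreated genotype difference (1.16) and the mean genotype difference (0.62). With outlier spots kept, miR-222 no longer passed for the 12 h change in wild type (-0.58). With no intensity trend in limma, miR-222 no longer passed for the 12 h change in wild type (-0.58).

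Each array was left out in turn, with a lone remaining array assumed to vary like the other groups. miR-221 ranged from -0.61 to -0.35 for the 12 h change in wild type, -0.94 to -0.45 for the 12 h change in knockout and -0.46 to 0.023 for the genotype difference in the 12 h response. It ranged from -0.35 to 0.30 for the 24 h change in wild type, -0.40 to -0.04 for the 24 h change in knockout and -0.52 to 0.12 for the genotype difference in the 24 h response. It ranged from 0.13 to 0.78 for 24 h against 12 h in wild type, 0.23 to 0.71 for 24 h against 12 h in knockout and 1.30 to 1.33 for the untreated genotype difference. It ranged from 0.86 to 1.34 for the genotype difference at 12 h, 0.79 to 1.44 for the genotype difference at 24 h and 1.07 to 1.29 for the mean genotype difference. miR-222 ranged from -0.81 to -0.35 for the 12 h change in wild type, -1.81 to -1.34 for the 12 h change in knockout and -1.23 to -0.76 for the genotype difference in the 12 h response. It ranged from -0.81 to -0.35 for the 24 h change in wild type, -1.46 to -0.98 for the 24 h change in knockout and -0.88 to -0.40 for the genotype difference in the 24 h response. It ranged from 0 to 0 for 24 h against 12 h in wild type, 0.19 to 0.52 for 24 h against 12 h in knockout and 0.92 to 1.40 for the untreated genotype difference. It ranged from 0 to 0.34 for the genotype difference at 12 h, 0.51 to 0.53 for the genotype difference at 24 h and 0.54 to 0.70 for the mean genotype difference. The within-array difference of the pair ranged from 0.53 to 0.74 for treated minus untreated and 0.45 to 0.73 for knockout minus wild type. Within the pair, a call was gained without the second wild type replicate at 12 h and without the second untreated knockout replicate.

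Within a slide, arrays with the same replicate number shared a scan, so there the number also marks the scan. Same-numbered replicates deviated together (correlation above 0.1) in 6 of 15 pairs of groups (-0.55 to 0.87), pairs on different slides included. The main fit did not take the numbers to pair the samples, and blocks by replicate and by scan were run beside it. With the replicate block, limma adjusted p-values were 0.0315 for the 12 h genotype difference of miR-221, 0.0268 for its 12 h change in knockout and 0.0538 for the 12 h change of miR-222 in wild type cells, and no other call changed. Slide as a block was not run, since each group lies on 1 slide and the group means already hold it. Signals close to background limit miR-222 and, in treated wild type cells, probe P2640 of miR-221.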

Other observations

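The equality of software totals seen for miR-222 was not particular to it. Over all arrays, 2169 detected mouse miRNA values were compared with the probe totals. Of these, 1490 equalled a sum of the miRNA's own probe totals, 679 equalled own probe totals plus the total of the detected miRNA that precedes it in alphabetical order, and 0 did neither, within 0.01%. Per array the second kind made up 27.3% to 40% of detected values. The cause was not tested.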
